A study of Mus musculus with 6 samples.

Results

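The genes described here encode the constitutive proteasome of mouse adipose derived mesenchymal stem cells (AD-MSCs), with its activators and assembly chaperones. They were all genes whose symbol starts with Psma, Psmb, Psmc, Psmd, Psme or Psmg and a number, without the immunoproteasome subunits Psmb8, Psmb9 and Psmb10, and 45 of the 18193 genes that could be read had such a name. Each gene was read from its brightest probe set (the group of probes that reports one transcript) among those annotated to a single gene. Psme2, which encodes a partner of Psme1, lay only on a probe set annotated to several genes and was not read.

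The proteasome is the protease that degrades most proteins marked with ubiquitin. Its 20S core is a barrel of outer alpha rings, which form the gate, and inner beta rings, which hold the cutting sites, and its 19S cap binds ubiquitin, unfolds the substrate with a ring of ATPases and feeds it into the core. Other activators can open the gate without ubiquitin, and dedicated chaperones guide assembly and then leave. Under inflammatory signals the cutting subunits can be replaced by those of the immunoproteasome, whose products are well suited to antigen presentation.

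The comparison asked how CD73+ AD-MSCs differed from CD73- AD-MSCs in gene expression. CD73, encoded by Nt5e, is a surface enzyme that makes adenosine. Cells were isolated from the groin fat of C57BL/6 mice, sorted by flow cytometry on CD73 alone, cultured in low sugar DMEM with serum and used at the fifth passage, so both groups carry the same strain, tissue and culture, and neither was treated. There were 3 CD73+ and 3 CD73- arrays, and the sources do not say whether arrays of a group hold cells of separate mice or cultures, so the p-values below cover the spread among these 6 arrays alone, and that spread may be technical.

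Levels are log2 signals, and a difference is CD73+ minus CD73-. A gene passed at a limma adjusted p under 0.05. Nt5e, the gene behind the sort, had 7.84, 7.60 and 7.74 on the CD73+ arrays and 7.29, 6.39 and 6.84 on the CD73- arrays, without overlap (difference 0.88, limma adjusted p = 0.0218). These values come from the brightest of its 3 probe sets, and the other 2 did not pass. Of 9 stromal markers read, 5 were higher in CD73+ cells and 0 lower, where 10.1% of all genes were higher and 12.6% lower. Their summed log2 levels were 96.1 to 96.2 on CD73+ arrays and 92.3 to 92.7 on CD73- arrays. Among 5 leukocyte, 4 endothelial, 4 epithelial and 2 adipocyte markers only Cd14 passed (difference 0.50), where 22.8% of all genes passed. Summed levels were 26.0 to 26.4 on CD73+ and 25.1 to 25.7 on CD73- arrays for leukocyte markers. The sums were 18.4 to 18.7 on CD73+ and 18.1 to 18.7 on CD73- arrays for endothelial markers, 18.3 to 18.8 on CD73+ and 18.0 to 18.9 on CD73- arrays for epithelial markers, and 6.55 to 6.89 on CD73+ and 6.53 to 6.75 on CD73- arrays for adipocyte markers. Ptprc, Cdh1 and Adipoq, which define leukocytes, epithelium and adipocytes, lay at 3.06, 2.76 and 3.18 on CD73+ arrays and 3.19, 2.76 and 3.17 on CD73- arrays, all below the lower quartile of each array (3.83 to 3.92). Other markers of these lists were brighter. Below the mean lower quartile lay 1 of 5 leukocyte, 1 of 4 endothelial, 2 of 4 epithelial and 2 of 2 adipocyte markers. Cd14, Cd3e and Epcam lay at 6.66, 6.17 and 6.55 in CD73+ and 6.16, 6.11 and 6.30 in CD73- cells. Each of these is above the array medians (5.28 to 5.37), and absence of other cell types was not tested. The part of the stromal markers in the results below was not tested. In these bulk samples, fewer cells of a type and less RNA per cell cannot be told apart. Scaling the arrays to the spiked poly-A controls moved all probe sets up by 0.93 in CD73+ cells. The directions given below are on the deposited scale, without that shift, unless poly-A scaling is named.

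Of the constitutive proteasome genes, 11 of 45 passed and 34 did not. On the deposited scale 9 of 45 genes were lower in CD73+ cells (against 12.6% of all genes), namely Psme3, Psmd11, Psmg2, Psmc2, Psmd8, Psmg1, Psmc6, Psmd5 and Psmg3, and 2 were higher (4.44%, against 10.1%), namely Psma5 and Psma7, while with poly-A scaling all 45 were higher and with median centring 0 were. In either direction 24.4% of the 45 passed, against 22.8% of all genes. The signal was at or above 7.65 for 6566 genes, 7.65 being that of Psmc3ip, the dimmest of the 45 apart from Psma8 and Psmb11. Of these 6566 brighter genes 24.4% were lower, 17.3% higher and 41.7% either. The set has a floor alone and was not matched to the proteasome genes in signal. The share of proteasome genes that were lower was near that of these brighter genes. The share that were higher, and the share that passed in either direction, were below those of the brighter genes. The median difference was -0.037 over the 45 genes, -0.018 over all genes and -0.036 over those 6566. The differences of the 45 ran from -0.52 to 0.26. The difference was under 0.1 in size for 22 of the 45 genes, against 8047 of 18193 genes and 2033 of those 6566. The 95% interval lay within 0.25 of 0 for 26 of the 45, against 5315 of 18193 and 2126 of 6566. The ranges of the groups were apart for 16 genes with lower values in CD73+ cells (35.6%, against 22.7% of all genes and 40.1% of those 6566) and 11 with higher values (24.4%, against 18.1% and 29.9%). The calls of Psme3, Psmd11, Psmg2, Psmc2 and Psmd8 held without any single array. Without single arrays 5 to 8 genes were lower, with 5 on leaving out replicate 1 or 2 of either group, and 0 or 1 were higher, with 0 without CD73+ replicate 1 or 2.

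**Figure D1:**
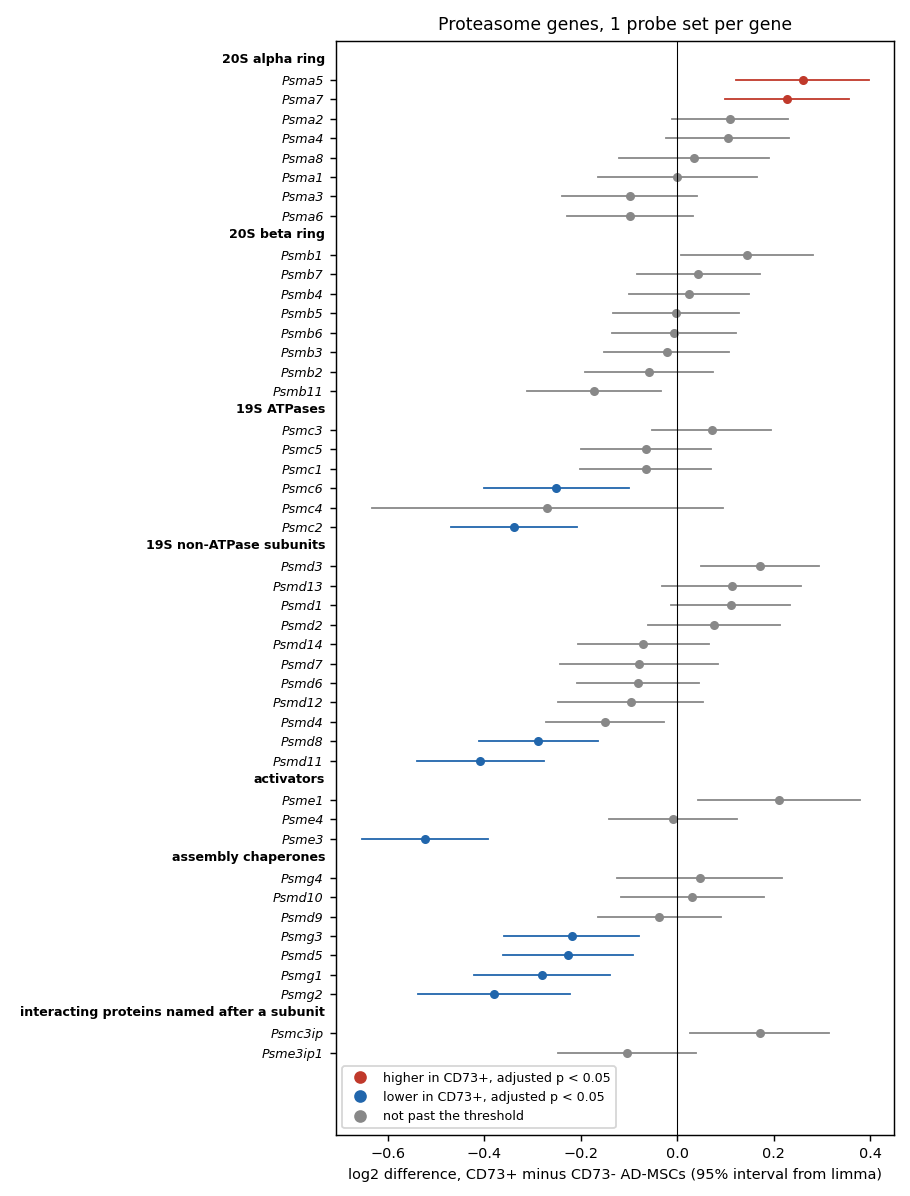
Log2 difference, CD73+ minus CD73- AD-MSCs, on the x axis for each of the 45 constitutive proteasome genes, grouped by their place in the complex. Points are limma estimates on the deposited scale, lines are 95% intervals, and colours mark the 2 genes that were higher and the 9 that were lower. In the beta ring 0 of 8 genes are coloured, and 4 of 7 assembly chaperones are coloured as lower. Of all genes 10.1% were higher and 12.6% lower. With poly-A scaling all 45 would lie above 0.

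The alpha rings held both genes that were higher in CD73+ cells, which made 2 of 8. That share was 25%, against 10.1% of all genes and 17.3% of the 6566 brighter ones. Psma5 had 10.66, 10.60 and 10.66 on the CD73+ arrays and 10.38, 10.45 and 10.33 on the CD73- arrays. The groups did not overlap, and Psma5 was 1.2-fold higher in CD73+ cells (log2 difference 0.26, SE 0.059, limma adjusted p = 0.0204). Psma7 had 10.81, 10.84 and 10.79 on the CD73+ arrays and 10.64, 10.57 and 10.55 on the CD73- arrays, again without overlap. It was 1.17-fold higher (difference 0.23, SE 0.055, limma adjusted p = 0.0259). Both are structural subunits with no cutting site. The other 6 alpha genes, Psma1, Psma2, Psma3, Psma4, Psma6 and the testis form Psma8, did not pass, with differences of -0.099 to 0.11, and Psma8 was dim (3.28 in CD73+ and 3.25 in CD73- cells). The Psma5 call was lost on leaving out CD73+ replicate 1, 2 or 3, or CD73- replicate 1 (limma adjusted p = 0.0514 to 0.0820), the Psma7 call without CD73+ replicate 1 or 2 or CD73- replicate 2 or 3 (0.0584 to 0.0960), and both ended with median centring (0.0683 for Psma5 and 0.10 for Psma7).

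In the beta rings 0 of 8 genes passed limma, against 22.8% of all genes and 41.7% of the 6566 brighter ones. At an unadjusted limma p under 0.05, 1 was higher (Psmb1) and 1 lower (Psmb11), and neither overlapped between the groups. By an unmoderated test of each probe set after adjustment 0 passed. Psmb1 passed as higher with a filter on dim probe sets and with an eBayes trend. Psmb11 passed as lower with the mean of all probe sets of each gene. Psmb5, the chymotrypsin-like subunit and the main target of bortezomib, had 10.90, 10.86 and 10.80 on the CD73+ arrays and 10.88, 10.84 and 10.85 on the CD73- arrays. The values interleaved, and the difference was -0.0031 with a 95% interval of -0.13 to 0.13 (limma adjusted p = 0.981). Psmb6, the caspase-like subunit, had 10.79, 10.83 and 10.87 in CD73+ and 10.81, 10.87 and 10.83 in CD73- cells, a difference of -0.0067 with an interval of -0.14 to 0.12 (limma adjusted p = 0.957). Psmb7, the trypsin-like subunit, had 10.35, 10.33 and 10.31 in CD73+ and 10.33, 10.24 and 10.29 in CD73- cells, a difference of 0.044 with an interval of -0.083 to 0.17 (limma adjusted p = 0.669). All of these groups overlapped, and the intervals leave out differences beyond 0.17 in either direction on the deposited scale. Psmb1, Psmb2, Psmb3 and Psmb4, which have no cutting site, differed by -0.059 to 0.14. Psmb11, the thymus form, was dim at 4.05 in CD73+ and 4.22 in CD73- cells.

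Of the 3 immunoproteasome genes, whose products take the place of these subunits, Psmb8 and Psmb9 were lower in CD73+ cells and Psmb10 did not pass. Thus 2 of 3 were lower, where 12.6% of all genes were. Psmb8, which replaces Psmb5, had 6.23, 6.34 and 6.13 on the CD73+ arrays and 6.97, 7.07 and 7.02 on the CD73- arrays. It was 1.72-fold lower in CD73+ cells, without overlap (difference -0.79, SE 0.071, limma adjusted p = 0.000532). Psmb9, which replaces Psmb6, had 6.21, 6.11 and 6.18 in CD73+ and 6.45, 6.42 and 6.62 in CD73- cells, and was 1.25-fold lower without overlap (difference -0.33, SE 0.071, limma adjusted p = 0.0176, or 0.0690 without CD73+ replicate 2). Psmb10, which replaces Psmb7, had 8.67, 8.74 and 8.68 in CD73+ and 8.64, 8.69 and 8.78 in CD73- cells, which overlapped (difference -0.0063, interval -0.15 to 0.14). The difference of a constitutive subunit from its counterpart within an array does not depend on how whole arrays are scaled. Psmb5 minus Psmb8 was 4.62 ± 0.090 in CD73+ and 3.84 ± 0.072 in CD73- cells (SD, n = 3 each), 0.78 apart and without overlap. Psmb6 minus Psmb9 was 4.66 ± 0.076 in CD73+ and 4.34 ± 0.12 in CD73- cells, 0.32 apart and without overlap. For both the exact two-sided permutation p was 0.1, the smallest that 3 arrays against 3 allow, so neither could pass (0.15 after adjustment over the 3 pairs). Psmb7 minus Psmb10 was 1.63 ± 0.042 in CD73+ and 1.58 ± 0.091 in CD73- cells, which overlapped (exact permutation p = 0.5, two-sided, also 0.5 after adjustment).

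**Figure D2:**
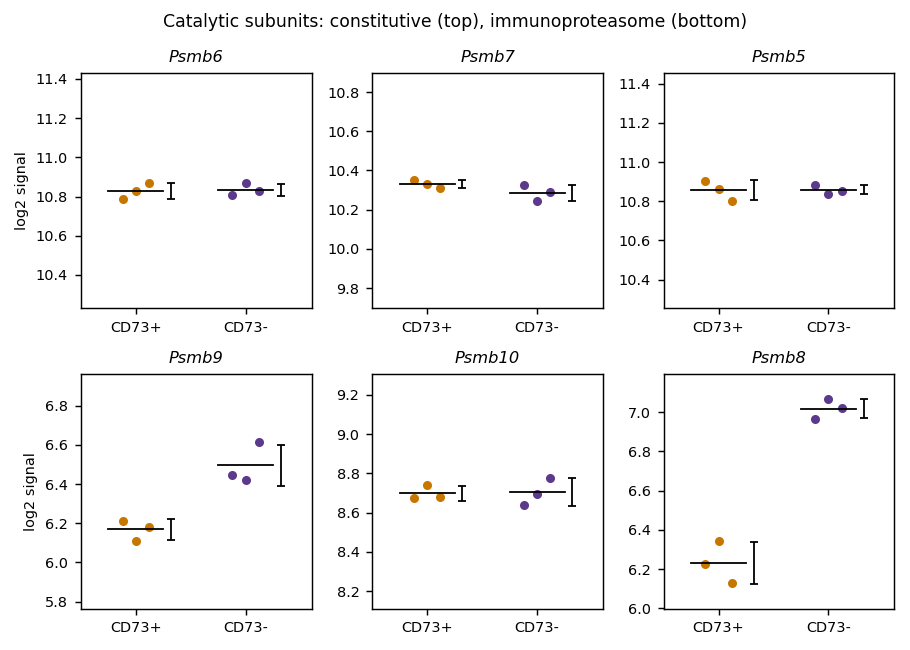
Log2 signal (y axis) of the catalytic subunits on each CD73+ and CD73- array, constitutive in the upper row and the immunoproteasome counterpart of each below it. Points are arrays, horizontal lines are means and bars show the SD (n = 3 each), and every panel spans the same range of log2 units around its own centre. Psmb6, Psmb7 and Psmb5 overlap between groups, as Psmb10 does, and Psmb9 and Psmb8 are lower in CD73+ cells on the deposited scale (with poly-A scaling both are higher, by 0.60 and 0.14).

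Among the 6 ATPases of the 19S base, which unfold the substrate, 2 were lower in CD73+ cells and 0 higher. The share lower was 33.3%, against 12.6% of all genes and 24.4% of the 6566 brighter ones. Psmc2 had 11.55, 11.59 and 11.62 on the CD73+ arrays and 11.88, 11.97 and 11.93 on the CD73- arrays. The groups lay apart, and Psmc2 was 1.26-fold lower (difference -0.34, SE 0.056, limma adjusted p = 0.00563). Psmc6 had 11.18, 11.16 and 11.11 in CD73+ and 11.50, 11.38 and 11.33 in CD73- cells, without overlap, and was 1.19-fold lower (difference -0.25, SE 0.064, limma adjusted p = 0.0326). Its call ended when any single array but CD73- replicate 3 was left out (0.0828 to 0.0900). Psmc1, Psmc3 and Psmc5 differed by -0.065 to 0.072 and did not pass. Psmc4 varied most among all 45 genes, with 10.33, 10.60 and 10.82 in CD73+ and 11.07, 10.89 and 10.59 in CD73- cells. These values overlapped, and the difference of -0.27 had an interval of -0.63 to 0.094 (limma adjusted p = 0.307). It ranged from -0.40 without CD73- replicate 3 to -0.14 without CD73+ replicate 1, was -0.16 without CD73- replicate 1, and was 0.11 on the other probe set of Psmc4, which did not pass either.

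Of the 11 other subunits of the 19S cap, 2 were lower in CD73+ cells (18.2%) and 0 higher, and both are lid subunits. Over the whole cap 4 of 17 genes were lower (23.5%), near the 24.4% of the 6566 brighter genes. Psmd11, which helps to hold the cap on the core, had 11.00, 10.97 and 10.94 on the CD73+ arrays and 11.33, 11.39 and 11.42 on the CD73- arrays. It was 1.33-fold lower without overlap (difference -0.41, SE 0.056, limma adjusted p = 0.0027). Psmd8 had 12.04, 12.03 and 12.01 in CD73+ and 12.30, 12.34 and 12.30 in CD73- cells, without overlap, and was 1.22-fold lower (difference -0.29, SE 0.053, limma adjusted p = 0.00837). The 9 that did not pass differed by -0.15 to 0.17. On the brightest probe sets the nearest to the threshold was the lid subunit Psmd3, at 9.59 in CD73+ and 9.42 in CD73- cells (limma adjusted p = 0.0598), followed by the ubiquitin receptor Psmd4, at 11.20 in CD73+ and 11.35 in CD73- cells (0.0969). A second probe set lay nearer and lower in CD73+ cells for Psmd6 (-0.29, limma adjusted p = 0.0505) and Psmd4 (-0.18, 0.0530). With the mean of all probe sets of a gene, Psmd3 passed as higher and Psmd6 as lower. Psmd3 also passed as higher with cyclic loess normalization, a filter on dim probe sets, an eBayes trend, array weights and the unmoderated test. Psmd4 passed as lower with that filter, the trend and the unmoderated test. Psmd1 passed as higher with the trend and the unmoderated test. Psmd14, which removes ubiquitin chains, differed by -0.070, and the base scaffolds Psmd1 and Psmd2 by 0.11 and 0.076.

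Psme3, the nuclear activator that opens the core without ubiquitin, had the largest difference of the 45 genes. It had 8.26, 8.30 and 8.24 on the CD73+ arrays and 8.74, 8.83 and 8.81 on the CD73- arrays. The lowest CD73- array lay well above the highest CD73+ array, and Psme3 was 1.44-fold lower in CD73+ cells (8.27 ± 0.032 in CD73+ and 8.79 ± 0.045 in CD73- cells, SD, n = 3 each, difference -0.52, SE 0.056, limma adjusted p = 0.000982). Its interferon-induced relative Psme1 had 9.75, 9.84 and 9.93 in CD73+ and 9.67, 9.69 and 9.54 in CD73- cells. Those values did not overlap either, yet the difference of 0.21 did not pass (limma adjusted p = 0.0874). Psme1 did pass as higher with quantile or cyclic loess normalization, a filter on dim probe sets, or an eBayes trend. In the other alternatives apart from poly-A scaling Psme1 did not pass. Psme4, a large nuclear activator known from spermatogenesis, differed by -0.0088 with an interval of -0.14 to 0.12.

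Of the 7 assembly chaperones that the symbol rule took in, 4 were lower in CD73+ cells (57.1%, against 12.6% of all genes and 24.4% of those of like signal) and 0 higher, with 4 lower at an unadjusted p under 0.05 and 4 by the unmoderated test after adjustment, and the median difference was -0.22. Pomp, an assembly chaperone outside that rule, was higher (difference 0.32, limma adjusted p = 0.0082). Psmg1 and Psmg2 form a dimer that starts the alpha ring. Psmg2 had 9.64, 9.66 and 9.71 on the CD73+ arrays and 10.12, 10.09 and 9.94 on the CD73- arrays, and was 1.3-fold lower without overlap (difference -0.38, SE 0.068, limma adjusted p = 0.00765). Psmg1 had 9.22, 9.28 and 9.29 in CD73+ and 9.61, 9.56 and 9.47 in CD73- cells, and was 1.21-fold lower without overlap (difference -0.28, SE 0.060, limma adjusted p = 0.0167). Psmg3 and Psmg4 form a second dimer for the same ring, and only Psmg3 passed. Psmg3 had 8.61, 8.73 and 8.62 in CD73+ and 8.84, 8.91 and 8.85 in CD73- cells, without overlap (difference -0.22, SE 0.060, limma adjusted p = 0.042). Psmd5, which binds the ATPase ring during assembly and is no subunit of the finished cap, had 9.54, 9.57 and 9.58 in CD73+ and 9.84, 9.81 and 9.72 in CD73- cells, also without overlap (difference -0.23, SE 0.057, limma adjusted p = 0.0315). Psmg4 and the other ATPase chaperones, Psmd9 and Psmd10, differed by -0.037 to 0.047. The Psmg1 call was lost on leaving out CD73+ or CD73- replicate 1 or 2 (0.0541 to 0.0732), the Psmd5 call without any array but CD73- replicate 3 (0.0617 to 0.114), and the Psmg3 call without any of the 6 (0.0560 to 0.148). The symbol rule also took in Psmc3ip, a meiotic recombination protein, and Psme3ip1, which binds Psme3. Neither is a subunit, neither passed (differences 0.17 and -0.10), and the 41 genes without these and without Psma8 and Psmb11 held the same 2 and 9 calls.

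**Figure D3:**
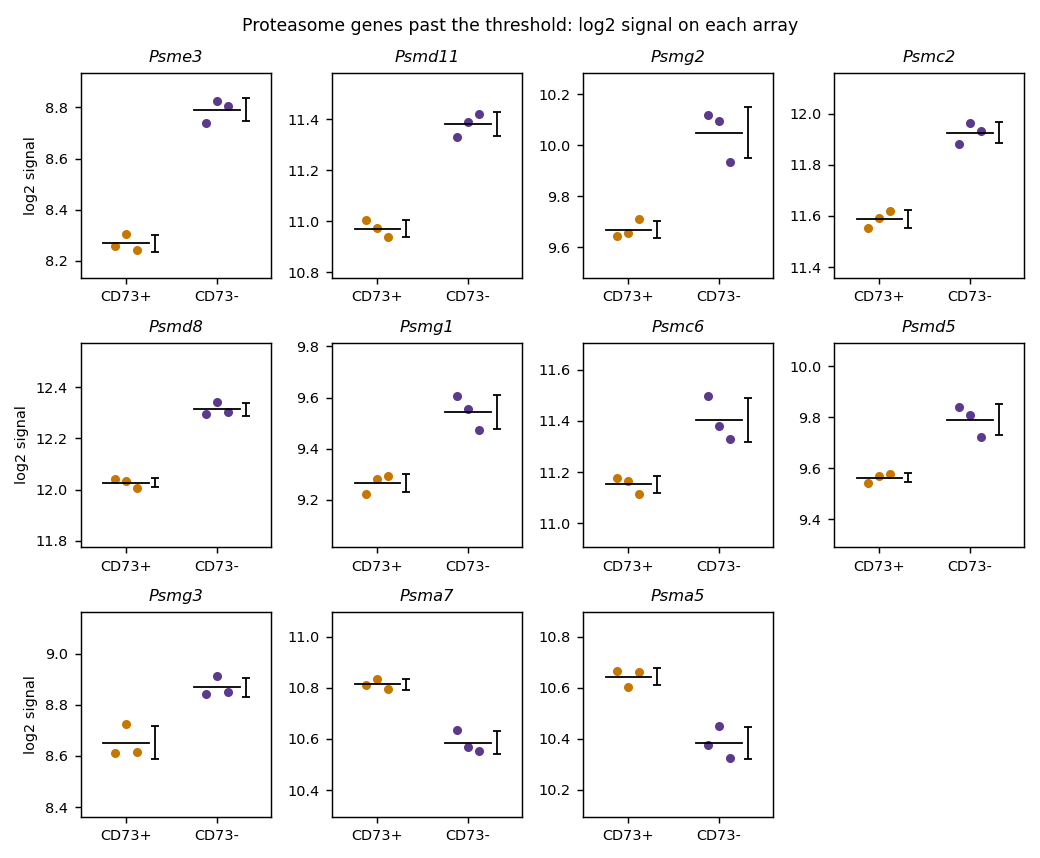
Log2 signal (y axis) on each CD73+ and CD73- array for the 11 genes that passed. Points are arrays, horizontal lines are means and bars show the SD (n = 3 each), and every panel spans the same range of log2 units. In all 11 panels the groups do not overlap, and only Psma7 and Psma5 are higher in CD73+ cells on the deposited scale, where poly-A scaling would put all 11 higher.

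Probe sets of one gene often gave different answers, so that several calls rest on the probe set chosen. The 45 genes had 95 probe sets annotated to 1 gene, of which 4 were higher in CD73+ cells (against 10.6% of all such probe sets) and 13 lower (against 10.9%). Of the 11 genes that passed, 8 had more than 1 probe set. On 0 of these did all probe sets pass, on 5 at least 1 other passed the same way, and 0 had probe sets that passed in opposite directions. The second probe set gave a like value for Psmd11 (-0.41), Psmc2 (-0.34), Psmg2 (-0.34) and Psma5 (0.31), each of which passed. The other 6 probe sets of Psmd11 gave -0.11 to 0.023 and did not pass, and the mean over all 8 gave -0.13 (limma adjusted p = 0.121). For Psma5 the dimmest probe set gave -0.15, and the mean was 0.14 (limma adjusted p = 0.256). Psme3 gave -0.24 on a dim probe set, which passed, and -0.058 on another, which did not. For Psmc6 the others gave 0.20 and 0.16 and for Psmg3 the other gave 0.22, none of which passed, so that the mean over their probe sets was 0.035 for Psmc6 and 0.0021 for Psmg3. Psma3 did not pass on its brightest probe set (-0.10) and passed on another (0.26). Of the 13 probe sets that were lower, 12 had a mean signal at or above the array median of 5.33.

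**Figure D4:**
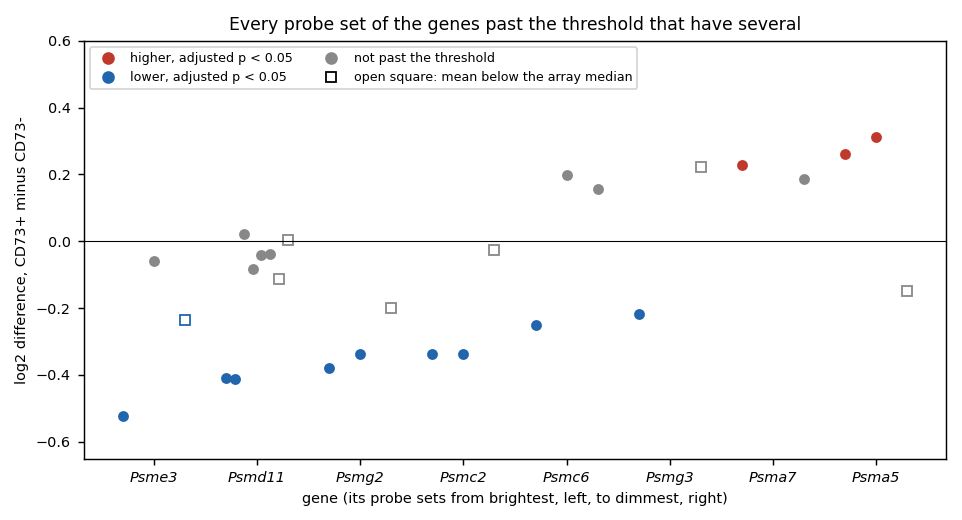
Log2 difference, CD73+ minus CD73-, on the y axis for every probe set of the 8 genes that passed and had several, ordered within each gene from the brightest on the left. Filled circles are probe sets at or above the array median and open squares those below it. Psmd11 shows 2 probe sets near -0.41 and 6 near 0, and Psmc6 and Psmg3 change sign between probe sets, on the deposited scale.

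Genes that work with the proteasome were taken from lists of 43 genes, of which 33 could be read. Of these, 16 were lower in CD73+ cells and 3 higher (against 12.6% lower and 10.1% higher of all genes, and 24.4% and 17.3% of the 6566 brighter genes), with a median difference of -0.18 against -0.018 over all genes, on the deposited scale (poly-A scaling adds 0.93 to each difference and so turns the lower ones positive). Among 12 proteasome-associated genes 7 were lower, read against the same shares. Ubr4, a ubiquitin ligase, differed by -0.51 (8.77 in CD73+ and 9.28 in CD73- cells, limma adjusted p = 0.00219) and Zfand2a, an arsenite-induced protein that binds the cap, by -0.42 (limma adjusted p = 0.00274). Uchl5, a deubiquitinase of the cap, Zfand5, Ecpas, Akirin2, which carries proteasomes into the nucleus, and Psmf1 differed by -0.38 to -0.25 and are named after their values were seen. None of these 5 passed on the mean of its probe sets (limma adjusted p = 0.315 to 0.814), and Zfand5 and Ecpas each had another probe set that was higher. The Psmf1 call held only without CD73+ replicate 3 (0.0695 to 0.152 without another array), and the Ecpas call was lost on leaving out replicate 2 or 3 of either group (0.0545 to 0.0741). The only one higher was Pomp, the chaperone that completes the 20S core, at 10.44 in CD73+ and 10.12 in CD73- cells (difference 0.32, limma adjusted p = 0.0082). The shuttle receptors Ubqln4 and Rad23b, which bring ubiquitinated proteins to the cap, differed by -0.43 and -0.41, the mean over the probe sets of Rad23b being -0.055 (limma adjusted p = 0.45). Ubqln1 differed by 0.33 on its brightest probe set, but by -0.34 (limma adjusted p = 0.0327) on the brightest without a suffix for shared probes, so its direction is not settled. Vcp, the ATPase that extracts proteins for degradation, differed by 0.21 (limma adjusted p = 0.0352, which ended at 0.0534 to 0.130 without any array but CD73+ replicate 3), and its cofactors Nploc4 and Ufd1 by -0.42 and -0.25. The Ufd1 call was lost on leaving out CD73+ replicate 1 or 2, or CD73- replicate 1 or 2 (0.0589 to 0.0820), and with the mean of its probe sets (0.124).

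Of 13 regulators of proteasome genes, 4 were lower in CD73+ cells (against 12.6% of all genes and 24.4% of the 6566 brighter ones) and 0 higher. The median difference was -0.042 against -0.018 over all genes. These counts rest on the brightest probe sets. Stat3, named after its values were seen, differed by 0.19 on that probe set (limma adjusted p = 0.0786), and its 3 other probe sets were higher. Nfya, Nfyb and Keap1 each had another probe set that was higher, and Mafg another that was lower. Nfe2l1, the transcription factor that raises proteasome genes when proteasome activity is short, and which is named here after its values were seen, had 10.31, 10.32 and 10.30 on the CD73+ arrays and 10.54, 10.61 and 10.57 on the CD73- arrays. The groups did not overlap, and Nfe2l1 was 1.2-fold lower in CD73+ cells (difference -0.27, SE 0.053, limma adjusted p = 0.0122). Leaving out CD73+ replicate 1 (0.0530) or CD73- replicate 2 (0.0533) ended its call. Its DNA-binding partners Mafg and Mafk differed by -0.30 and -0.28, and Ngly1, the enzyme that helps to activate it and was also named after its values were seen, by -0.25. The calls ended for Mafk without CD73+ replicate 1 or 2 or CD73- replicate 2 (0.0505 to 0.0570), and for Ngly1 without any CD73+ replicate or CD73- replicate 2 (0.0521 to 0.0958). Nfe2l2, a related factor of the oxidative stress response, differed by -0.035 (limma adjusted p = 0.762).

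**Figure D5:**
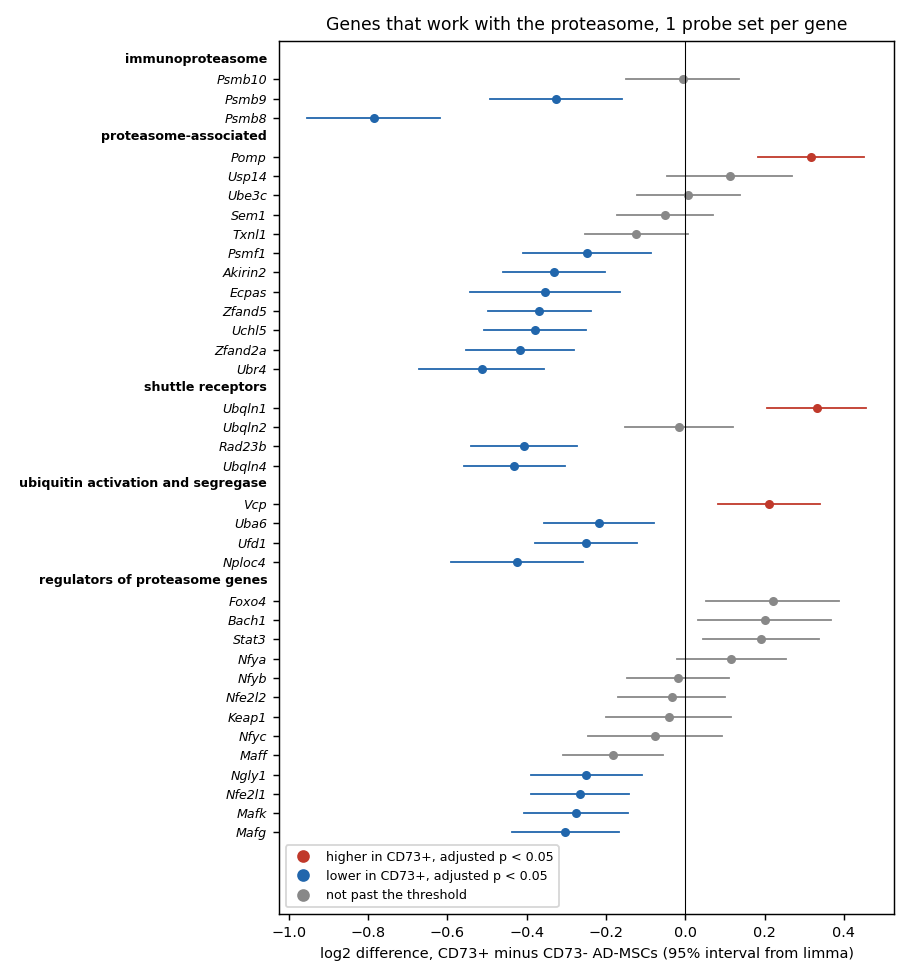
Log2 difference, CD73+ minus CD73-, on the x axis for the 3 immunoproteasome genes and the 33 related genes read, grouped by list. Points are limma estimates on the deposited scale and lines 95% intervals. Psmb8 has the largest difference, Pomp, Ubqln1 and Vcp are the genes that were higher, and poly-A scaling would move all points up by 0.93.

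The promoters of the proteasome genes are shown because Nfe2l1 with a small Maf protein binds the antioxidant response element, whose core is TGACNNNGC, and NF-Y binds the box CCAAT. Of the 45 genes 37 were in the RefSeq promoter table (GRCm38.p6), which gives 250 bases before and 50 after each start. On either strand TGACNNNGC lay in 6 of 37 (16.2%, against 14% of 27025 genes), namely Psmb5, Psmb6, Psmc6, Psmd9, Psmd12 and Psme4, and CCAAT in 15 of 37 (40.5%, against 41.1%). Both shares were close to those of all genes. Of the 6 genes with the core, only Psmc6 passed the test. The 250 bases before the start follow for Psmc6, Psmb5 and Psmb6, with the match to TGACNNNGC or its reverse complement in capitals.
Psmc6, chr14:45329574-45329823, plus strand: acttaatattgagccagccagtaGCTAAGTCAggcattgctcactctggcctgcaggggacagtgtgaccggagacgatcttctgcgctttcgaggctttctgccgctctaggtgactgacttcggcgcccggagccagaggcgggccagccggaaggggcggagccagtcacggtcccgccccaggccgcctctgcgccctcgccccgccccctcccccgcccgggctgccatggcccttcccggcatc
Psmb5, chr14:54617996-54618245, minus strand: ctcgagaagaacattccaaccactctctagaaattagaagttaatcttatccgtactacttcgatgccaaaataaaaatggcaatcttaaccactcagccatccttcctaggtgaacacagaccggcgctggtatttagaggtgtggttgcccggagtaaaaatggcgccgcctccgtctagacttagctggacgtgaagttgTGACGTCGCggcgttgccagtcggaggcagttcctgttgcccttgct
Psmb6, chr11:70525107-70525356, plus strand: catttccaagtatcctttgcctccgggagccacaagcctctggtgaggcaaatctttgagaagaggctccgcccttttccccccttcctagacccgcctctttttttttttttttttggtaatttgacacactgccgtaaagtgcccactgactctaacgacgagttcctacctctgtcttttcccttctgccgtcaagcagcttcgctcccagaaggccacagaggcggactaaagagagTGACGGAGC
In these genes the match began 227 bases before the start in Psmc6, 47 in Psmb5 and 9 in Psmb6. Psmc6 was lower in CD73+ cells on its brightest probe set, while Psmb5 and Psmb6 did not pass. The same stretch follows for Psme3, which had the largest difference, and Psma7, which was higher in CD73+ cells, with CCAAT or its reverse complement in capitals.
Psme3, chr11:101315963-101316212, plus strand: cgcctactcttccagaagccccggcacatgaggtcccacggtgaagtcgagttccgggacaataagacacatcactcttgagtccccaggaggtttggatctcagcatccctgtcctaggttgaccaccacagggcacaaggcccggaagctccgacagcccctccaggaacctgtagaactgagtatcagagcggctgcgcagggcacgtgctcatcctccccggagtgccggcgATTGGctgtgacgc
Psma7, chr2:180042465-180042714, minus strand: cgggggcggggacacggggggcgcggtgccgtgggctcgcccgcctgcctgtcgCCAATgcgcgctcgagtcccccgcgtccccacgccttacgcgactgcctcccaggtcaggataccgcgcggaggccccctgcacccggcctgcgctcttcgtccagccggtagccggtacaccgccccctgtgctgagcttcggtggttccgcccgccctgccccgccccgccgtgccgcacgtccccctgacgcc
CCAAT thus lay in the promoter of a gene of either direction on the deposited scale, 14 bases before the start in Psme3 and 196 in Psma7, and both genes are higher with poly-A scaling. A match describes the letters and is no measured binding site.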

How the data were processed

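RNA of 3 CD73+ and 3 CD73- AD-MSC samples was measured on 1-colour mouse arrays. The authors deposited log2 values per probe set, which the submitters' notes attribute to RMA (version not given in the sources used here). RMA makes arrays alike in distribution, which removes shifts shared by most genes and compresses small ratios. The file holds 45101 probe sets, 64 of them controls. For the remaining 45037, limma 3.58.1 (R 4.3.3) was run with lmFit and eBayes, without a block or filter, and p-values were adjusted over this whole set by Benjamini-Hochberg. Of these, 34945 carry 1 symbol, 932 several, and 9160 are unnamed here. All 45 proteasome symbols matched the RefSeq gene table by Entrez ID, unchanged. The fit was tested on simulated data, and plots used Python 3.11.15 and matplotlib 3.10.9.

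Arrays correlated at 0.997 to 0.998 within a group and 0.993 between groups, the median SD within a group was 0.10, and the number of arrays limits precision. Members and lists were chosen with earlier results of these data known. Values per array are given for members that passed, up to 8 each way, for Psmb5, Psmb6 and Psmb7, and for immunoproteasome genes, with the 2 largest rises and falls of each related list. Psmd3, Psmd4, Psme1 and Psmc4 were picked out after their values were seen. Alternatives were a replicate block, other normalizations, poly-A scaling, a filter, other eBayes settings, array weights, a plain t-test, other probe-set rules and leaving out each array.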

Additional observations from a re-analysis of the deposited data

How the results depend on the processing

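The count of genes called higher moved with the normalization, the filter and the test. Against 2 higher and 9 lower, median centring gave 0 higher, cyclic loess 4, a filter on dim probe sets 6, eBayes with a trend 8 and a plain t-test after adjustment 5 (10 higher and 13 lower unadjusted), while the number lower stayed within 1.5 times of 9 in these. Poly-A scaling gave 45 higher and 0 lower, a median of 0.89 over the genes, and 44707 higher and 33 lower of all probe sets, against 4408 and 4105. It turned the difference positive for Psmc2 (0.59), Psmc6 (0.68), Psmd5 (0.70), Psmd8 (0.64), Psmd11 (0.52), Psme3 (0.40), Psmg1 (0.65), Psmg2 (0.55), Psmg3 (0.71), Psmb8 (0.14), Psmb9 (0.60), Ubr4 (0.41), Zfand2a (0.51), Uchl5 (0.55), Zfand5 (0.56), Ecpas (0.57), Akirin2 (0.60), Psmf1 (0.68), Ubqln4 (0.50), Rad23b (0.52), Nploc4 (0.50), Ufd1 (0.68), Mafg (0.62), Mafk (0.65), Nfe2l1 (0.66) and Ngly1 (0.68). The mean of all probe sets gave Psmc6 0.035, Psmg3 0.0021 and Ubqln1 -0.016, and leaving out shared-probe suffixes gave Ubqln1 -0.34 and Zfand5 0.22. The cause was not tested.

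Same-numbered arrays did not deviate together (correlations -0.14, 0.028 and -0.14). With so few arrays per group, these correlations cannot decide whether same-numbered arrays share a mouse, sort or culture. With a replicate block 0 genes were higher and 5 lower (Psmc2, Psmd8, Psmd11, Psme3 and Psmg2), and 3080 probe sets were higher and 2713 lower. Without single arrays 0 to 1 genes were higher and 5 to 8 lower, the median was -0.045 to -0.021, and 2794 to 4199 probe sets were higher and 2525 to 3907 lower. Psmb5 minus Psmb8 then differed by 0.75 to 0.84, Psmb6 minus Psmb9 by 0.26 to 0.37 and Psmb7 minus Psmb10 by 0.016 to 0.10.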
